A study of Mus musculus with 8 samples.

Results

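The genes described here are 9 interferon-inducible genes of 3 mouse families: Phf11a, Phf11b, Phf11c and Phf11d, then Trim30a and Trim30d, and Ifi203, Ifi204 and Ifi209 of the Ifi200 family. They were chosen by name, with earlier results of these arrays known, because genes of these families read lower in CD45RBlow than in CD45RBhigh T cells. That difference is therefore given as a description, with no test. Of the 22180 genes that had a transcript cluster (the array's unit, one set of probes) naming them alone, 8 were members, each with 1 cluster. Ifi203 shared its cluster with other symbols and has no value here. To enter the tests, a gene had to reach its array's 40th percentile on 2 or more arrays, a level between 4.53 and 4.63 on the log2 scale. That left 13508 genes and 7 members, because Phf11d reached it on 1 array.

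The cells were CD4+CD25- T cells from spleens of C57BL/6 animals 6 to 8 weeks of age, sorted by their surface level of CD45RB, which is high on naive cells. Wild-type mice and CCR2-/- mice, which lack the receptor for the chemokine CCL2, each gave CD45RBhigh and CD45RBlow cells, and each of these 4 groups had 2 arrays. All cells had been cultured on plates coated with antibodies to CD3 and CD28, for 48 h by the sample protocols and for 2 h by the series design, and no unstimulated cells were measured. The titles carry a number 2 on 4 of the 8 samples, and the others are called replicate 1. No label ties a replicate to an animal, so the spread behind each p-value is that of these samples and may be technical. The 8 arrays had medians of 4.92 to 5.05, and Pearson's r between replicates was 0.984 to 0.994 over all clusters.

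Type I interferons bind a receptor whose kinases activate transcription factors, and these bind the interferon-stimulated response element in promoters of their target genes. PHF11 proteins carry a PHD zinc finger, a fold found in chromatin-associated proteins. TRIM30 proteins belong to the tripartite motif family of RING-finger ubiquitin ligases, and TRIM30A is known as an interferon-induced brake on Toll-like receptor signalling. Ifi200 proteins share the HIN domain, which binds DNA, and most add a pyrin domain. IFI204 is known as a sensor of cytosolic DNA and as the mouse relative of human IFI16. Each family lies as a cluster of duplicated genes, on chromosomes 14, 7 and 1 in this order. Close copies can share probe sequence, and how far a cluster reads its neighbours' transcripts was not tested.

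Phf11b was lower in CD45RBlow cells in every pair of arrays of 1 genotype and 1 replicate number. In wild type it read 9.62 and 9.67 in CD45RBhigh cells (replicates 1 and 2, log2 values throughout) and 7.82 and 8.06 in CD45RBlow cells. In CCR2-/- cells it read 9.93 and 9.95 against 7.79 and 7.99. The subsets did not overlap, and 1.56 log2 units lay between the lowest CD45RBhigh and the highest CD45RBlow array. The 4 differences ran from -2.14 to -1.62, a mean of -1.88 or 3.67-fold less transcript signal. Its spread was also the smallest among the 7 tested members, with SDs of 0.01 to 0.17 within the groups of 2.

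Phf11a, its neighbour, showed the same direction at a smaller size. It read 7.87 and 7.36 in wild-type CD45RBhigh cells and 7.28 and 7.03 in wild-type CD45RBlow cells. In CCR2-/- cells it read 7.63 and 7.83 against 7.09 and 6.78. The subsets came within 0.07 of each other without overlapping, and the mean difference was -0.62, or 1.54-fold. Phf11c did not separate the subsets. Its wild-type values were 8.46 and 8.78 against 8.14 and 7.87, and its CCR2-/- values 7.96 and 8.01 against 7.97 and 7.14. It was lower in CD45RBlow cells in 3 of 4 pairs and level in CCR2-/- replicate 1, where the difference was 0.002. Phf11d stayed between 4.21 and 4.66 on all arrays, near the bottom of the array's range, and was lower in 2 of 4 pairs. Its mean difference of -0.09 ran from -0.21 to 0.02 as single arrays were left out, positive without wild-type CD45RBhigh replicate 2.

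The stretches just before the annotated starts of 3 Phf11 genes show how the most evenly lowered gene compares with a near copy and with a gene at the floor. They hold 150 bases each, from RefSeq on GRCm38.p6, and read 5′ to 3′ along the gene. Capitals mark a match to the interferon-stimulated response element, searched on both strands as GAAA, any 2 bases, GAAA:
Phf11a, chr14:59297523-59297672, minus strand: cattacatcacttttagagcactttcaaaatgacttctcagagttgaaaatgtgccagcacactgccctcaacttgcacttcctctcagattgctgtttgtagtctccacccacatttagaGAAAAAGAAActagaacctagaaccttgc
Phf11b, chr14:59341331-59341480, minus strand: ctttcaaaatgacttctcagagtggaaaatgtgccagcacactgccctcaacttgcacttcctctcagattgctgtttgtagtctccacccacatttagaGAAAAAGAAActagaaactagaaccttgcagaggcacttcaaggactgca
Phf11d, chr14:59365491-59365640, minus strand: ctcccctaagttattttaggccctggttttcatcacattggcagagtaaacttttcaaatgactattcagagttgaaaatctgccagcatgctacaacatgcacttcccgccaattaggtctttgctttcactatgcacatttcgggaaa
Phf11a and Phf11b hold the same element, GAAAAAGAAA, with 19 and 40 bases between it and the start. Their full windows, from 250 bases before to 50 bases after the start, were identical at 85.4% of aligned positions, against 53.2% for Phf11b and Phf11d. The windows of Phf11c and Phf11d hold no match, which says only that these letters are not in that window. The mean subset differences of Phf11a and Phf11b were -0.62 and -1.88.

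**Figure D1:**
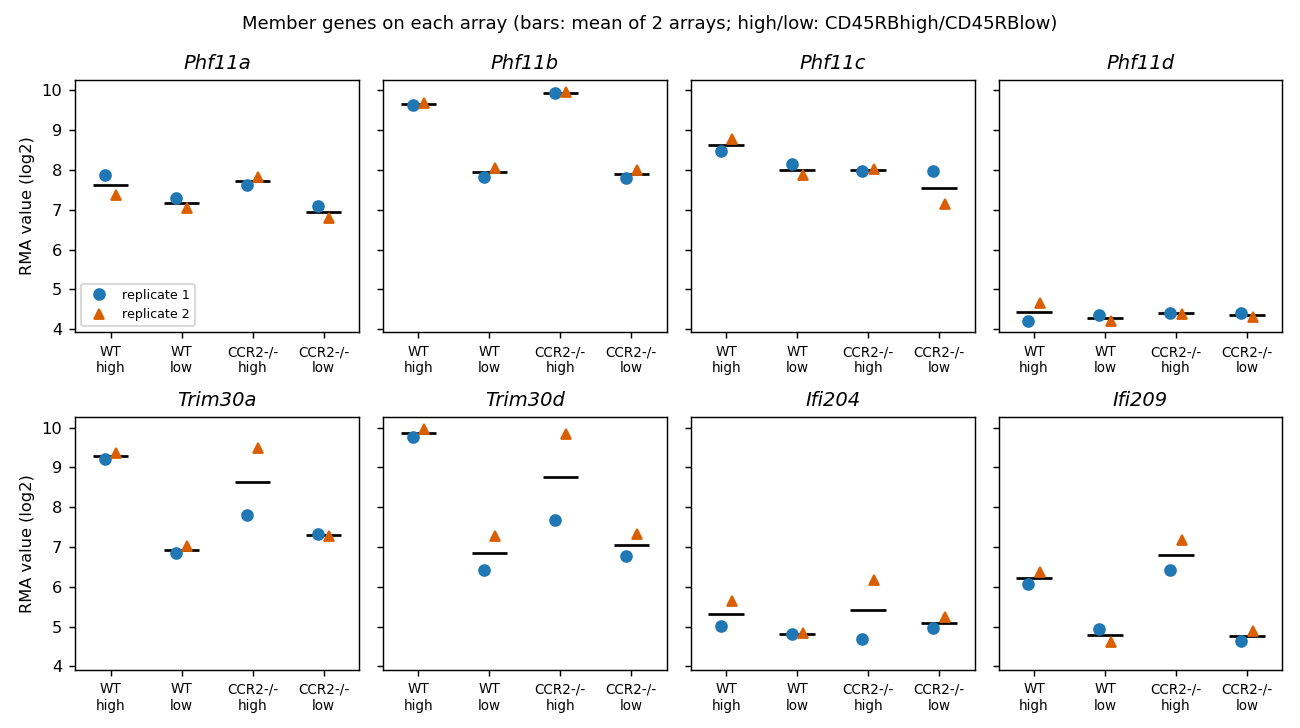
Log2 RMA value (vertical axes) of each measured member on the 8 arrays, by genotype and subset; points are arrays, bars the mean of 2. Phf11b and Ifi209 drop from CD45RBhigh to CD45RBlow on all arrays, and Trim30a and Trim30d spread most on the CCR2-/- CD45RBhigh arrays.

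Trim30d and Trim30a had large differences that were much smaller in 1 pair. Trim30d read 9.78 and 9.98 in wild-type CD45RBhigh cells against 6.43 and 7.26 in wild-type CD45RBlow cells. In CCR2-/- cells it read 7.68 and 9.83 against 6.77 and 7.34. The subsets did not overlap, but the CCR2-/- CD45RBhigh replicate 1 array stood apart from the other 3 CD45RBhigh arrays and only 0.35 above the highest CD45RBlow array. The 4 differences were -3.34, -2.71, -0.91 and -2.49 (wild type replicates 1 and 2, then CCR2-/- replicates 1 and 2). The smallest was 1.88-fold and the largest 10.2-fold, with a mean of -2.36, or -2.90 without CCR2-/- CD45RBhigh replicate 1.

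Trim30a followed the same arrays. It read 9.20 and 9.37 against 6.86 and 7.02 in wild type, and 7.79 and 9.48 against 7.33 and 7.28 in CCR2-/- cells. Its differences were -2.34, -2.36, -0.46 and -2.20, a mean of -1.84, or -2.26 without CCR2-/- CD45RBhigh replicate 1. Across the 4 CD45RBhigh arrays both genes were lowest on that same array, and over all 8 arrays they correlated at r = 0.982, a description of 2 neighbouring genes on the same arrays. The 150 bases before their starts show how alike these copies are:
Trim30a, chr7:104465194-104465343, minus strand: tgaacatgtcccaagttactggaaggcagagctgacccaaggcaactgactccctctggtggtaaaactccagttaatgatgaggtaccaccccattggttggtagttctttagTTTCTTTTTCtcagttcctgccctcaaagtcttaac
Trim30d, chr7:104507850-104507999, minus strand: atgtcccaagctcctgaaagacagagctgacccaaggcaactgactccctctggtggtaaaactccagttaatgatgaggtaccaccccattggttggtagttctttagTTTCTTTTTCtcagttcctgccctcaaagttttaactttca
Both carry the element on the opposite strand, as TTTCTTTTTC, with 26 and 31 bases between it and the start. The full windows were identical at 90.8% of aligned positions. A further annotated start of Trim30a carries the same letters inside the transcribed part of its window.

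Ifi209 behaved like Phf11b in its direction and Ifi204 did not. Ifi209 read 6.08 and 6.38 in wild-type CD45RBhigh cells and 4.94 and 4.62 in wild-type CD45RBlow cells. In CCR2-/- cells it read 6.43 and 7.18 against 4.65 and 4.90. No subset overlap was seen, with 1.14 between the ranges, and the differences of -1.14, -1.76, -1.78 and -2.28 averaged -1.74, or 3.34-fold. Its CD45RBlow values lay close to the filter level.

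The subsets of Ifi204 overlapped, and its highest values were those of both replicate 2 CD45RBhigh arrays. It read 5.01 and 5.64 against 4.81 and 4.83 in wild type, and 4.68 and 6.16 against 4.97 and 5.23 in CCR2-/- cells. The differences were -0.20, -0.81, 0.29 and -0.93, so the CCR2-/- replicate 1 pair went the other way. The mean was -0.41, or -0.78 and -0.04 without CCR2-/- CD45RBhigh replicate 1 and replicate 2 in turn. For Ifi209 the stretch before the start is shown because this gene was lower in every pair and its window lacks the element:
Ifi209, chr1:173630709-173630858, plus strand: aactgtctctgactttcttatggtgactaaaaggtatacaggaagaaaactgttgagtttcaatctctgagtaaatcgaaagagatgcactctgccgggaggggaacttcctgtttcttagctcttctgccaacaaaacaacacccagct
Neither this stretch nor the full window holds a match, which says only that these exact letters are not in that window. The stretch holds taaatcgaaa, while the window of the relative Ifi214 holds GAAATCGAAA. Of the 8 members with a promoter window, 5 had a match: Phf11a, Phf11b, Trim30a, Trim30d and 1 of the 2 annotated starts of Ifi203. Counted by window this is 6 of 10, beside 14 of 20 windows of other Trim30 and Ifi200 genes and 3.44% of the 32851 windows of 300 bases in the RefSeq table. The gamma-interferon activated site (TTC, any 3 bases, GAA), which reads the same on both strands, was in none of the members' windows and in 8.3% of all windows. Copies of one ancestral gene share promoter letters, so the members' windows are not separate observations.

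**Figure D2:**
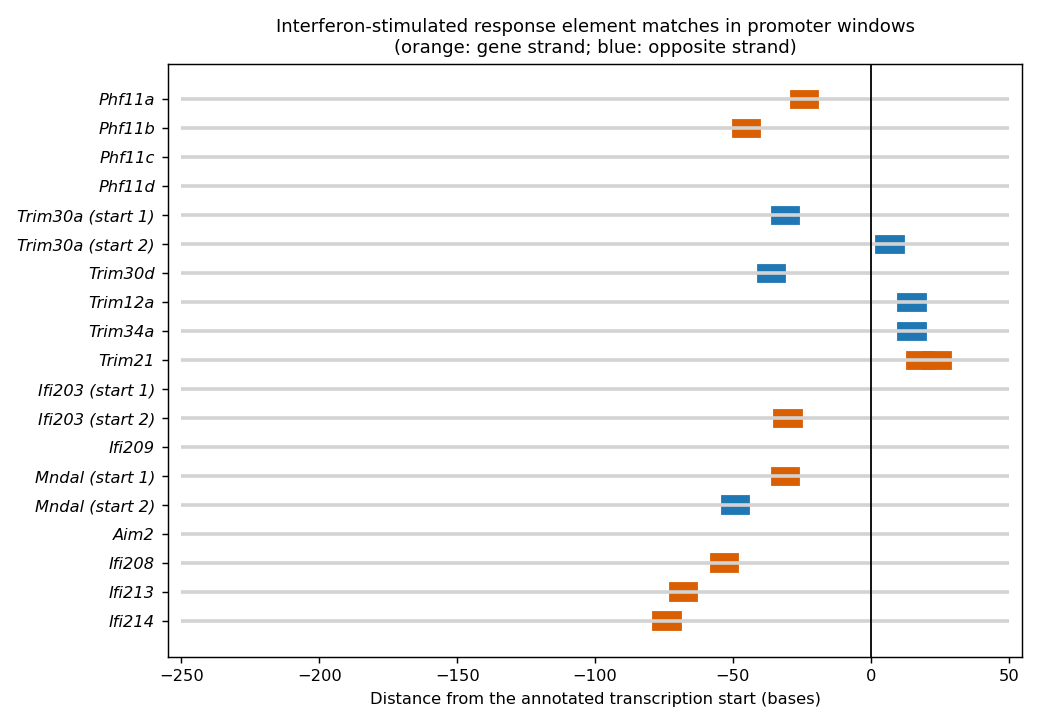
Matches to the interferon-stimulated response element in windows from 250 bases before to 50 bases after annotated starts (horizontal axis, bases from the start) for members and for other genes of the families; each grey line is a window. Matches lie in 6 of the members' 10 windows, 4 of them within 50 bases before the start in the Phf11 and Trim30 genes.

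Set against each other by genotype and number, the members were lower in CD45RBlow cells in 28 of 32 single differences. All 8 were lower in replicate 2 of both genotypes, 7 in wild-type replicate 1 and 5 in CCR2-/- replicate 1. Of all tested genes, 52.6% and 52.4% were lower in wild-type replicates 1 and 2, and 49.5% and 53.2% in CCR2-/- replicates 1 and 2. The median difference was -0.86 and -1.27 in wild-type replicates 1 and 2, and -0.50 and -1.50 in CCR2-/- replicates 1 and 2. Over all tested genes the 4 medians lay between -0.02 and 0.003. Phf11a, Phf11b, Trim30a, Trim30d and Ifi209 were lower in all 4 pairs, 5 of 8 members, where 18.7% of all tested genes were. These 5 were also the members whose CD45RBlow arrays all lay below all CD45RBhigh arrays, which held for 8.13% of tested genes. Phf11b and Ifi209 were lower by at least 1 log2 unit in every pair, against 0.252% of tested genes. Since the members were chosen on this contrast, these shares describe them and nothing more is read from them.

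**Figure D3:**
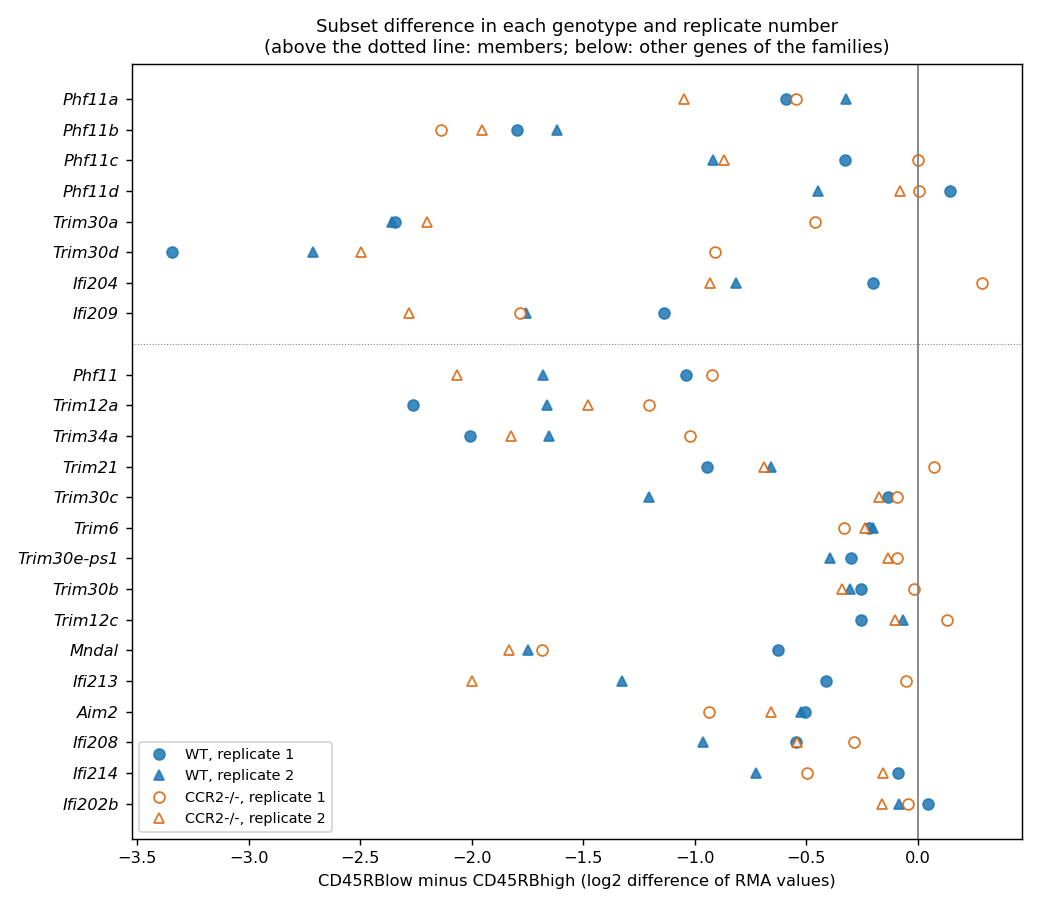
Difference CD45RBlow minus CD45RBhigh (horizontal axis, log2 units) in each genotype and replicate number, for the members and for other tested genes of the families, with Phf11. Among the members, the open circles of CCR2-/- replicate 1 lie nearest to 0, or above it, for Phf11c, Phf11d, Trim30a, Trim30d and Ifi204. They do not for Phf11a, Phf11b or Ifi209.

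The pair that departed was CCR2-/- replicate 1, and not for all members. There the Phf11b difference (-2.14) was the largest of its 4 and that of Ifi209 (-1.78) the second largest, while those of Trim30a, Trim30d, Phf11c and Ifi204 shrank or turned. In the CD45RBhigh array of that pair, 4 of the 8 members had their lowest CD45RBhigh value, as did 28.9% of all tested genes. Among the 22 tested other interferon-induced genes listed below, 20 did, and their mean difference was -0.02 in this pair against -0.81, -1.13 and -1.33 in the others.

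Whether the subset difference varied with genotype or replicate number was tested with limma on all 13508 genes, with Benjamini-Hochberg adjustment. The interaction of genotype and subset was called for 0 of 7 members, 0 at an unadjusted p under 0.05, and for 0% of all tested genes. The estimates were 1.32 for Trim30d (95% interval -0.75 to 3.40), 1.02 for Trim30a (-0.49 to 2.53), -0.58 for Ifi209 (-1.43 to 0.26) and -0.34 for Phf11b (-0.76 to 0.08), where a positive value is a smaller loss in CCR2-/- cells. The intervals of the Trim30 genes are wide enough to hold both no difference and one as large as their mean wild-type loss. Without CCR2-/- CD45RBhigh replicate 1 the estimates were 0.25 for Trim30d and 0.17 for Trim30a, and without replicate 2 they were 2.40 and 1.86. With single arrays left out the Ifi209 estimate ran from -0.96 to -0.21 and that of Phf11b from -0.46 to -0.22. The interaction of subset and number was called for 0 of 7 members and 0% of genes, with 2 members at an unadjusted p under 0.05. These were Ifi204 (-0.92, adjusted p = 0.420) and Phf11c (-0.73, adjusted p = 0.419), both with the larger loss in replicate 2.

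The effect of CCR2 itself, which played no part in choosing the members, asked whether the receptor's absence changed these genes. In CD45RBhigh cells 0 of 7 members passed limma's test, 1 at an unadjusted p under 0.05, and 0% of all genes passed. Phf11c was lower in CCR2-/- cells by 0.64 (interval -1.25 to -0.03, limma adjusted p = 1), and over both subsets by 0.54 (interval -0.97 to -0.11, adjusted p = 0.940), a value of -0.75 to -0.34 with single arrays left out. Ifi209 was 0.57 higher (-0.02 to 1.17) and Phf11b 0.29 higher (-0.004 to 0.59). The Ifi209 effect became 0.95 without CCR2-/- CD45RBhigh replicate 1 and 0.20 without replicate 2. Trim30d differed by -1.12 (-2.59 to 0.35) and Trim30a by -0.65 (-1.71 to 0.42), differences that became -0.04 and 0.20 without CCR2-/- CD45RBhigh replicate 1. In CD45RBlow cells the 7 effects lay between -0.45 and 0.37, again with 0 called of the members and 0% of all genes, and with 0 members at an unadjusted p under 0.05. Averaged over subsets, 0 members and 0% of genes passed, with 1 member, Phf11c, at an unadjusted p under 0.05. These intervals do not show that the genotypes act alike.

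**Figure D4:**
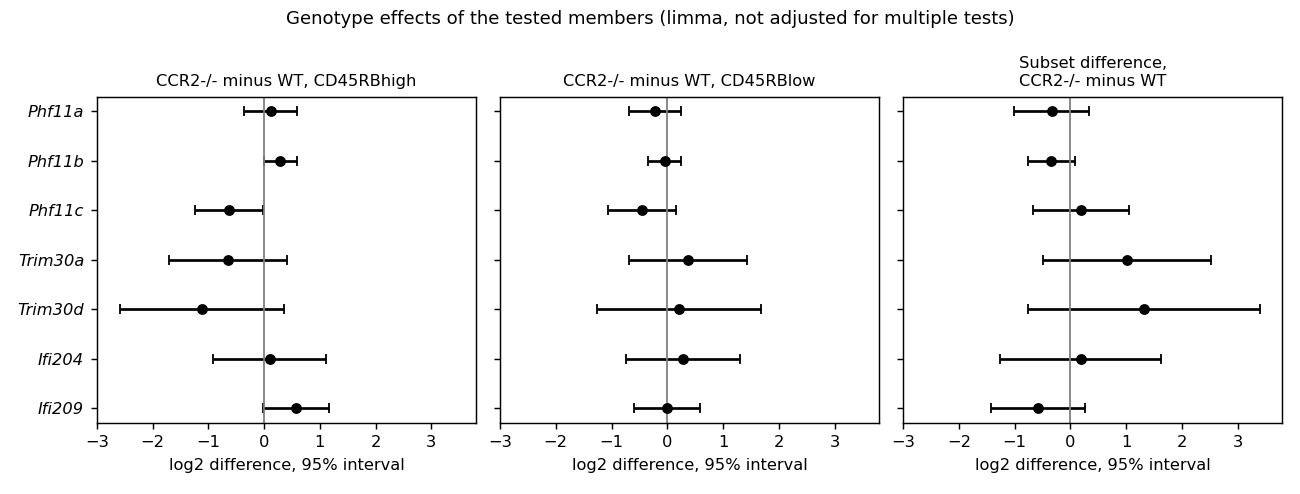
Effect of CCR2 absence on the 7 tested members in each subset and on their subset difference (horizontal axes, log2 difference, points with 95% limma intervals). Every interval holds 0 except that of Phf11c in CD45RBhigh cells, and those of Trim30a and Trim30d are the widest.

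Replicate number differed for some members, without passing the test. The number effect, 2 minus 1 with the group means in the fit, was called for 0 of 7 members and 0.0666% of tested genes. At an unadjusted p under 0.05 stood Trim30d (0.94 higher in replicate 2, interval 0.25 to 1.62, limma adjusted p = 0.240) and Ifi204 (0.60 higher, interval 0.07 to 1.13, adjusted p = 0.277). Trim30d was higher in replicate 2 in all 4 groups, but without either CCR2-/- CD45RBhigh array the effects were 0.53 for Trim30d and 0.30 for Ifi204.

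Some relatives of the Trim30 and Ifi200 members also fell. Of 24 listed, 14 were tested on the subset effect averaged over genotypes, and 4 fell in CD45RBlow cells and 0 rose, where 3.03% of all tested genes changed, 1.93% falling and 1.1% rising. Trim12a, a TRIM gene beside the Trim30 copies, fell by 1.65 on the log2 scale (limma adjusted p = 0.0286) and Trim34a by 1.63 (adjusted p = 0.0145). Mndal, an Ifi200 gene, fell by 1.47 (adjusted p = 0.0313). Aim2, the inflammasome sensor of cytosolic DNA, fell by 0.65 (adjusted p = 0.0191), in each of the 4 pairs by 0.50 to 0.93. All 4 were lower in every pair, as were 11 of the 14, where 18.7% of all tested genes were. The median difference of the 14 was -0.48 against -0.01 over all tested genes. Trim30b and Trim6, among the 11, reached the filter level on CD45RBhigh arrays only. They therefore entered the tests through the subset in which they read higher. The second, dimmer cluster of Trim34a differed by -0.37. The listing of members was made with these values known, so the split into members and other genes is not independent of them.

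The other 10 tested relatives did not pass. Among them were the further Trim30 copies Trim30b (-0.23), Trim30c (-0.40) and Trim30e-ps1 (-0.23), which reached the filter level on 2, 3 and 4 arrays. Trim21, an antibody receptor and ubiquitin ligase and one of the brighter relatives, differed by -0.55 (adjusted p = 0.131) and was 0.07 higher in CCR2-/- replicate 1, the pair in which Trim30a lost least. Ifi213 differed by -0.95 (adjusted p = 0.317), with its smallest and largest pairs both in CCR2-/- cells, -0.05 for replicate 1 and -2.0 for replicate 2. Ifi208 differed by -0.58 (adjusted p = 0.281; 0.0312 with the replicate number as a block, where 5 relatives fell). Phf11, a copy on the Phf11 cluster that was added after its values were seen, differed by -1.43 and was lower in all 4 pairs, which is a description with no test. The 4 calls rest on few arrays. Of the 14 relatives, 2 passed when replicate 1 of wild-type CD45RBhigh was dropped and 1 when replicate 2 was. Dropping the wild-type CD45RBlow arrays left 0 (replicate 1) and 2 (replicate 2). Dropping the CCR2-/- CD45RBlow arrays left 0 and 1 in the same order, and dropping the CCR2-/- CD45RBhigh arrays 6 and 4. Over these settings the highest adjusted p was 0.116 for Trim12a, 0.0774 for Trim34a, 0.115 for Aim2 and 0.154 for Mndal.

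Genes of the interferon pathway, its targets and DNA sensing gave few calls. Of 66 listed genes in 6 lists 55 were tested, and limma called 0 lower and 1 higher in CD45RBlow cells, with 29 at an unadjusted p under 0.05. The share of all tested genes at that unadjusted level was not counted, here or for the other lists and the members. Counts at that level therefore cannot be set against the general rate, and nothing is read from them. With the replicate number as a block 9 fell and 2 rose. Of all tested genes, 494 (3.66%) fell and 264 rose with the block. More of the listed genes fell without CCR2-/- CD45RBhigh replicate 1 than without CCR2-/- CD45RBhigh replicate 2. Such a fit leaves 1 sample in a group, and no share of all tested genes is given for either setting. Nothing is therefore read from that contrast. The median of the 55 was -0.18.

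By role, 0 of 7 ligand genes passed and 1 fell with the block, Ebi3, a subunit of interleukins 27 and 35 (-0.83, adjusted p = 0.0511, and 0.0034 with the block). Its second cluster differed by -0.01, and the mean of both by -0.42. Ifng differed by 1.13 (adjusted p = 0.142). Of 7 receptor and kinase genes 0 passed and 1 fell with the block, Ifnar1, a chain of the type I interferon receptor (-0.67, adjusted p = 0.0913, and 0.0274 with the block). Its partner chain Ifnar2 differed by -0.31 (adjusted p = 0.0828). Of these 7 genes 4 were lower in all 4 pairs and 2 were higher in all 4, Jak2 (0.53) and Ifngr1 (0.28). Of 7 transcription factor genes 0 passed and 1 fell with the block, Stat2 (-1.43, adjusted p = 0.0991, and 0.0184 with the block). Irf9, which encodes a factor that binds the element, differed by -0.69 (adjusted p = 0.148), and Irf7 by -1.77 (adjusted p = 0.264). Irf7 was 0.09 higher in CCR2-/- replicate 1, and its difference became -2.69 without the CD45RBhigh array of that pair (adjusted p = 0.0137) and -0.85 without CCR2-/- CD45RBhigh replicate 2.

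Among 6 inhibitor genes 0 passed, and with the block Usp18, which shuts off the type I receptor, fell (-2.54, adjusted p = 0.117, and 0.0205 with the block) while Socs1, an inhibitor of JAK kinases, rose (0.64, adjusted p = 0.0952, and 0.0402 with the block). Of 22 other interferon-induced genes 0 passed, 5 fell with the block, and 14 had an unadjusted p under 0.05. The 5 were Ifit1, Mx2, Ddx58 (-0.79, adjusted p = 0.127, and 0.0321 with the block), Eif2ak2 (-1.11, 0.146, and 0.0268 with the block) and Parp9 (-0.70, 0.244, and 0.0441 with the block). Ifit1 differed by -2.74 (adjusted p = 0.0883, and 0.0176 with the block), Mx2 by -2.21 (0.107, and 0.0395 with the block), Xaf1 by -1.99 (0.104) and Bst2 by -0.80 (0.104). Mx2 and Xaf1 reached the filter level on 4 CD45RBhigh and 0 CD45RBlow arrays, so they entered the tests through CD45RBhigh alone. Of the 22 genes 10 were lower in all 4 pairs, where 18.7% of all tested genes were, and the median of the 22 was -0.65. Of 6 partners in DNA sensing and the inflammasome, Casp1, the protease that inflammasomes activate, rose by 1.17 (adjusted p = 0.0032). Its differences were 0.66 and 0.78 in wild type and 1.82 and 1.42 in CCR2-/- cells (replicates 1 and 2). In CD45RBhigh cells Casp1 differed by -1.415 in CCR2-/- from wild type (interval -1.71 to -1.12, limma adjusted p = 0.0934). Aim2, the sensor that feeds it, had fallen. Cgas, the enzyme that senses cytosolic DNA, differed by -0.16 (adjusted p = 0.408).

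The genes whose profile over the 8 arrays was most like the members' mean profile included 1 relative. Among 1695 tested genes with an SD of at least 0.3, the 10 highest correlations were those of Ypel5 (r = 0.995), Sp100, a nuclear body protein (0.989), H2-T24, a non-classical class I gene (0.986), Trim34a (0.985), Cep162 (0.981), BC147527 (0.976), Tuba8 (0.975), Parp4 (0.973), Rhof (0.970) and Fut8 (0.968). The families differed in their nearest profiles. For the Phf11 genes these were H2-Q5 (0.980), Gramd3 (0.972) and Niban1 (0.967). For the Trim30 genes they were the chemokine gene Ccl5 (0.981), Oas3, an oligoadenylate synthetase (0.980), and Gpr132 (0.974). For Ifi204 and Ifi209 they were Isg20, an interferon-induced exonuclease (0.985), Agrn (0.981) and Mfhas1 (0.977). These correlations share the same 8 arrays and the same split into subsets, and are descriptions.

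Markers of other cell types moved with the subsets in part. In bulk RNA, fewer cells of a type and less RNA per cell cannot be told apart. All 6 measured CD4 T cell markers passed the filter level on every array. Of 7 measured B cell markers 2 did, and their mean log2 level was 5.32 to 6.13 on CD45RBhigh and 5.14 to 5.26 on CD45RBlow arrays. The B cell differences by pair were -0.60, -0.06, -0.99 and -0.14 (wild type replicates 1 and 2, then CCR2-/- replicates 1 and 2), so they were largest in CCR2-/- replicate 1. The mean differences of the macrophage and monocyte (-0.43), dendritic cell (-0.59) and CD8 T cell (-0.92) lists were also largest in that pair. For NK cells it was -0.19 in both CCR2-/- pairs, and for plasmacytoid dendritic cells it was smallest (-0.06) in CCR2-/- replicate 1. In that pair the differences of Trim30a and Trim30d were their smallest, that of Phf11b its largest and that of Ifi209 its second largest. Of the 6 tested B cell markers 3 were lower in all 4 pairs. Ebf1 differed by 0.38 and was lower in 1 pair, and Cd22 differed by -0.21 and was lower in 2. Cd22, Cd79a and Ms4a1 reached the filter level on CD45RBhigh arrays only. Ighm, the immunoglobulin heavy chain gene, fell by 1.03 (adjusted p = 0.0128), but differed by -0.30 with the mean of its clusters (adjusted p = 0.307). It also lost its call when the replicate 1 array of wild-type or of CCR2-/- CD45RBlow cells was dropped (adjusted p = 0.0774 in the first case). The part of B cell RNA in the members' differences was not tested.

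Of 8 macrophage and monocyte markers 6 lay below the filter level on all arrays, namely Csf1r, Lyz2, Adgre1, Itgam, Cd14 and Fcgr1. The mean level of the 8 was 5.12 to 5.45 on CD45RBhigh and 4.97 to 5.04 on CD45RBlow arrays. Ctss, which encodes cathepsin S, was bright enough to test and fell by 1.23 (adjusted p = 0.0096; 0.0629 without wild-type CD45RBlow replicate 1). Cd68 differed by -0.53 (adjusted p = 0.292, and 0.0244 with the block). Of 6 measured dendritic cell markers Itgax, Flt3 and Xcr1 lay below the level on all arrays, and the mean was 4.97 to 5.43 on CD45RBhigh against 4.74 to 4.93 on CD45RBlow arrays. The tested ones were H2-Aa (-1.09, lower in all 4 pairs, adjusted p = 0.147), Zbtb46 (-0.43, lower in all 4 pairs, adjusted p = 0.208) and H2-Ab1 (-0.56, adjusted p = 0.418), 2 of 3 at an unadjusted p under 0.05. Both H2 genes encode class II molecules, which B cells also carry. H2-Aa reached the filter level on CD45RBhigh arrays only. On the plasmacytoid dendritic cell list Siglech and Ccr9 lay below the level on all arrays, while all 3 tested genes had an unadjusted p under 0.05 and 0 passed, namely Bst2 and Ly6c2 (-0.53, adjusted p = 0.269), both lower in all 4 pairs, and Tcf4 (0.42, higher in all 4 pairs, adjusted p = 0.195). On the NK cell list Ncr1 and Klrb1c lay below the filter level on all arrays. Eomes (-0.39, adjusted p = 0.0883) and Klrd1 (-0.31, adjusted p = 0.30) were lower in all 4 pairs, but Eomes reached the filter level on CD45RBhigh arrays only. Nkg7, the brightest of the 3 tested, differed by 0.27 and was lower in 2 of 4 pairs. Of 5 neutrophil markers S100a8, Elane and Mpo lay below the level on all arrays. The 2 tested, S100a9 (0.18) and Ly6g (0.24), were higher in all 4 pairs. The part of these cells' RNA in the members' differences was not tested. Cd8b1, of CD8 T cells, differed by -0.92 (adjusted p = 0.0776, and 0.0467 with the block). Cd8a, the other gene on that list, differed by -0.18 and reached the filter level on 3 arrays. Both were lower in all 4 pairs.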

How the data were processed

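Biotin-labelled cDNA from 200 ng of total RNA, isolated with TRI Reagent, was hybridised to 8 single-colour Affymetrix whole-transcript arrays, per the labels' protocols. The authors deposited log2 values for 41034 transcript clusters. RMA and Partek are named in the submitters' processing notes without versions, and the genome build is not given in the sources used here. They ran from 3.07 to 13.9 and were used as deposited. RMA usually equalises the arrays' distributions, which hides a shift common to most genes.

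Gene names came from the platform annotation: 23521 clusters had 1 symbol, 1814 had several and were left out, and 15699 were unnamed here. The brightest cluster stood for a gene. The model held 4 group means (limma 3.58.1, R 4.3.3; 4 residual and 3.36 prior degrees of freedom); fits with the replicate number added gave the number effect and its interaction with subset, the latter with 2 residual degrees of freedom. Two-sided p-values took Benjamini-Hochberg adjustment across all 13508 tested genes, and calls needed an adjusted p under 0.05. The number of arrays limits precision: the median standard error was 0.15 for an effect in 1 subset and 0.10 for an averaged effect. The fits were tested on simulated data.

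Replicate numbers were checked for pairing: the difference of replicate 2 from replicate 1 correlated across genes between every 2 groups at 0.11 to 0.53, over the limit of 0.1. Same-numbered samples were therefore paired in the differences by pair and in the replicate block, although the labels do not explain the number. The main fits of the genotype and subset effects held no term for the number. Their p-values are therefore unpaired. Blocked values are given where they change a call.

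The members, lists and naming rule were chosen with earlier results of these data known. The text names all members, the measured relatives by value or in counts, up to 4 genes of each pathway list with the smallest p, and the genes with the likest profiles. Alternatives were the replicate block, the mean of a gene's clusters, other filters, median centring, quantile normalization, array weights and leaving out each array.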

Additional observations from a re-analysis of the deposited data

How the results depend on the processing

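The members' counts, 5 lower in all pairs and 5 without subset overlap, kept their value under each of the 7 alternatives that keep all arrays; with 1 array left out the first ran from 5 to 7 over the 3 pairs that remained, and the second stayed at 5. With an array left out, the averaged difference ran from -0.78 to -0.04 for Ifi204, from -0.21 to 0.02 for Phf11d, from -2.90 to -1.83 for Trim30d and from -1.94 to -1.82 for Phf11b. The 0 calls of members on the genotype effects and on the genotype interaction stayed at 0 under the block and the other alternatives run, as did those on the number effect and its interaction with subset, which hold the number already; the last was not run with an array left out. The genotype effect of Trim30a in CD45RBhigh cells changed sign without CCR2-/- CD45RBhigh replicate 1, running from -1.49 to 0.20 with an array left out. The relatives that fell numbered 4, and 0 to 6 with an array left out. The pathway genes that fell numbered 0, 9 with the replicate block, 1 with the 60th percentile filter, 1 with arrays centred on their median, and 0 to 19 with an array left out. Those that rose numbered 1, 2 with the replicate block, and 1 to 3 with an array left out. Over all genes, 261 fell and 148 rose between subsets, against 494 and 264 with the block, and 20 to 353 and 19 to 194 with an array left out. The number effect called 9 genes, and 1 to 4 with an array left out; its interaction with subset called 0 genes, and 101 with arrays centred on their median, where the members' calls stayed at 0. The cause of these shifts was not tested. A setting that leaves out an array keeps 1 sample in its group, which is assumed to vary like the others. The block changed no other call of a gene named in the text. Phf11d and the CD45RBlow values of Ifi209 lie close to the array's floor, which limits how small a level can be read.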
